A study of Homo sapiens with 8 samples.

Results

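ERK feedback genes are transcripts that rise when the kinase ERK is active and whose products mostly act to turn ERK signalling down again. The members described here were the phosphatase genes DUSP4, DUSP5, DUSP6 and DUSP7, the Sprouty genes SPRY2 and SPRY4, the Sprouty-related genes SPRED1 and SPRED2, and the ETS factor genes ETV4 and ETV5. They were chosen by name, with earlier results of these data known, and all 10 were found among 38551 genes with counts. All 10 also passed the filter on low counts, which kept 13179 genes. Their mRNA was measured by poly(A) RNA-sequencing in MOLM-13, an acute myeloid leukemia cell line that carries a KMT2A fusion. Cells in 4 libraries had been exposed for 72 h to 100 nM PR-957 (ONX-0914), an inhibitor of the immunoproteasome subunit PSMB8, and cells in the other 4 had received the diluent DMSO for the same time. MOLM-13 is a single cell line, and no source used here says whether the replicates came from separate cultures, so p-values measure the spread between these libraries only.

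In the ERK cascade, an activated receptor such as FLT3 recruits adaptors that load RAS with GTP, and RAS then acts through the kinases RAF, MEK and ERK. Active ERK phosphorylates ETS-family activators and relieves repression by CIC, and both steps raise transcription of the feedback genes. DUSP proteins remove phosphate from ERK, Sprouty and SPRED proteins restrain the cascade near RAS, and ETV4 and ETV5 are transcription factors that carry the signal on to further genes. These transcripts are therefore widely read as a measure of ERK output in leukemia and in solid tumors. ERK phosphorylation itself was not analysed here.

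Upstream sequences were taken from RefSeq on GRCh38.p14 for members with a call in the comparison below. The table of promoters held a window for 6 of the 10 members. Shown are the 250 bases just before the outermost annotated start of DUSP6 (chr12:89352502-89352751), DUSP7 (chr3:52056572-52056821), SPRY2 (chr13:80341127-80341376) and SPRED2 (chr2:65432600-65432849). These 4 genes were lower under PR-957, and all 4 lie on the minus strand. The sequences are written 5′ to 3′ on the gene's strand, and capitals mark matches to the motifs searched.
DUSP6: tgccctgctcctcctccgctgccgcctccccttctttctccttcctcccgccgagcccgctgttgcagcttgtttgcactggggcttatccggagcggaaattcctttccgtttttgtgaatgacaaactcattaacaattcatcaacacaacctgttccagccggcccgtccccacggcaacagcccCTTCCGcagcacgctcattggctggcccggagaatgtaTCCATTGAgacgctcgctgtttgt
DUSP7: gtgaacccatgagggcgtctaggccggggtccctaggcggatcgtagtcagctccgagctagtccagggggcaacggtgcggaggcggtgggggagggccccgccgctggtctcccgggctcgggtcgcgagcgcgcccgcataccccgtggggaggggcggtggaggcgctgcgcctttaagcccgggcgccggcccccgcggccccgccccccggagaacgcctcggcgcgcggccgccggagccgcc
SPRY2: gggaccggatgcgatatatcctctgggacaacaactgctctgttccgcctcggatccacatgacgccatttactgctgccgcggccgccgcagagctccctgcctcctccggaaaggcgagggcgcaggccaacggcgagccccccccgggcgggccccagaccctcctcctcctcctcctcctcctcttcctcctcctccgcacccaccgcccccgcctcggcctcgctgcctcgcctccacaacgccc
SPRED2: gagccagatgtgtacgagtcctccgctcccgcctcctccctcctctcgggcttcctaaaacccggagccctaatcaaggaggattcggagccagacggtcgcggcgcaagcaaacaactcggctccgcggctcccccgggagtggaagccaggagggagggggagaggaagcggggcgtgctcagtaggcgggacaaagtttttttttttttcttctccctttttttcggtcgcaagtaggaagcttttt

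The motifs searched, on both strands, were the CIC octamers TGAATGAA, TGAATGGA, TCAATGAA and TCAATGGA, the ETS hexamer CGGAAG, the AP-1 heptamer TGACTCA and the CRE octamer TGACGTCA. The DUSP6 window held the CIC octamer TCAATGGA on the opposite strand, 24 to 17 bases before the start. It also held the ETS hexamer CGGAAG on the opposite strand, 62 to 57 bases before the start. Among 35116 windows of the same length, 3.18% held a CIC octamer, 16.5% the ETS hexamer, 4.20% the AP-1 heptamer and 1.65% the CRE octamer. No window of DUSP7, SPRY2 or SPRED2 held a match, which says only that these letters are not within it. GC content of the windows was 57.2% for DUSP6, 78.4% for DUSP7, 70.4% for SPRY2 and 58.8% for SPRED2, beside a median of 58.0% over all windows.

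Library totals ran from 16675036 to 23111223 counts. In both groups, libraries differed from each other by more than sampling noise, and the library farthest from its group was DMSO replicate 4, with a chi-square per gene of 10.2 to 15.3 against the other DMSO replicates and 3.32 to 5.83 among those. The 7 myeloid markers were present, and CEBPA was the highest of them over all libraries together. They summed to 1340 to 1400 CPM (counts scaled to a common library size) in DMSO and 2180 to 2470 CPM under PR-957. T-cell, erythroid and epithelial markers summed to less than 1 CPM in every library, with CD3E and CD3G at 0 throughout. B-cell markers, led by PAX5, summed to 16.9 to 20.2 CPM in DMSO and 13.9 to 18.4 CPM under PR-957, and fibroblast markers to 1.38 to 2.48 CPM and 1.45 to 3.37 CPM. Mitochondrially encoded genes took 1.94% to 2.75% of counts in DMSO and 4.15% to 5.24% under PR-957. The part of these whole-library differences in the results for the feedback genes was not tested. In bulk samples, fewer expressing cells and less RNA per cell cannot be told apart.

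To assess how inhibition of PSMB8 changed the transcripts of ERK feedback, PR-957 was compared with DMSO. Transcripts of 6 of the 10 genes fell, namely DUSP6, DUSP7, SPRY2, SPRED1, SPRED2 and ETV5, and none was called higher (edgeR quasi-likelihood test, adjusted p under 0.05 over all genes tested). DUSP4, DUSP5, SPRY4 and ETV4 did not pass the test. The count of higher members was also 0 at an unadjusted p under 0.05 in edgeR. It was 0 as well at an adjusted p under 0.05 with DESeq2 or limma-voom. Under some other alternatives, given below, it was 1. With a 2-level term for replicates 1 and 2 against 3 and 4, DUSP4 passed as higher (edgeR adjusted p = 0.0076). Among all genes tested, 23.5% were called lower and 23.1% higher, and 6 of 10 is above that share of lower calls. The members were chosen with earlier results of these data known, so this difference is no independent test. A decrease of at least 1.5-fold was found for DUSP6, DUSP7 and ETV5, which is 3 of 10 members beside 7.00% of all genes. All 4 PR-957 libraries lay below all 4 DMSO libraries for the same 6 genes that were called, and for 21.7% of all genes. The median log2 fold change of the 10 members was -0.31, beside 0.00 over all genes tested, with 8 of the 10 values below 0.

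**Figure D1:**
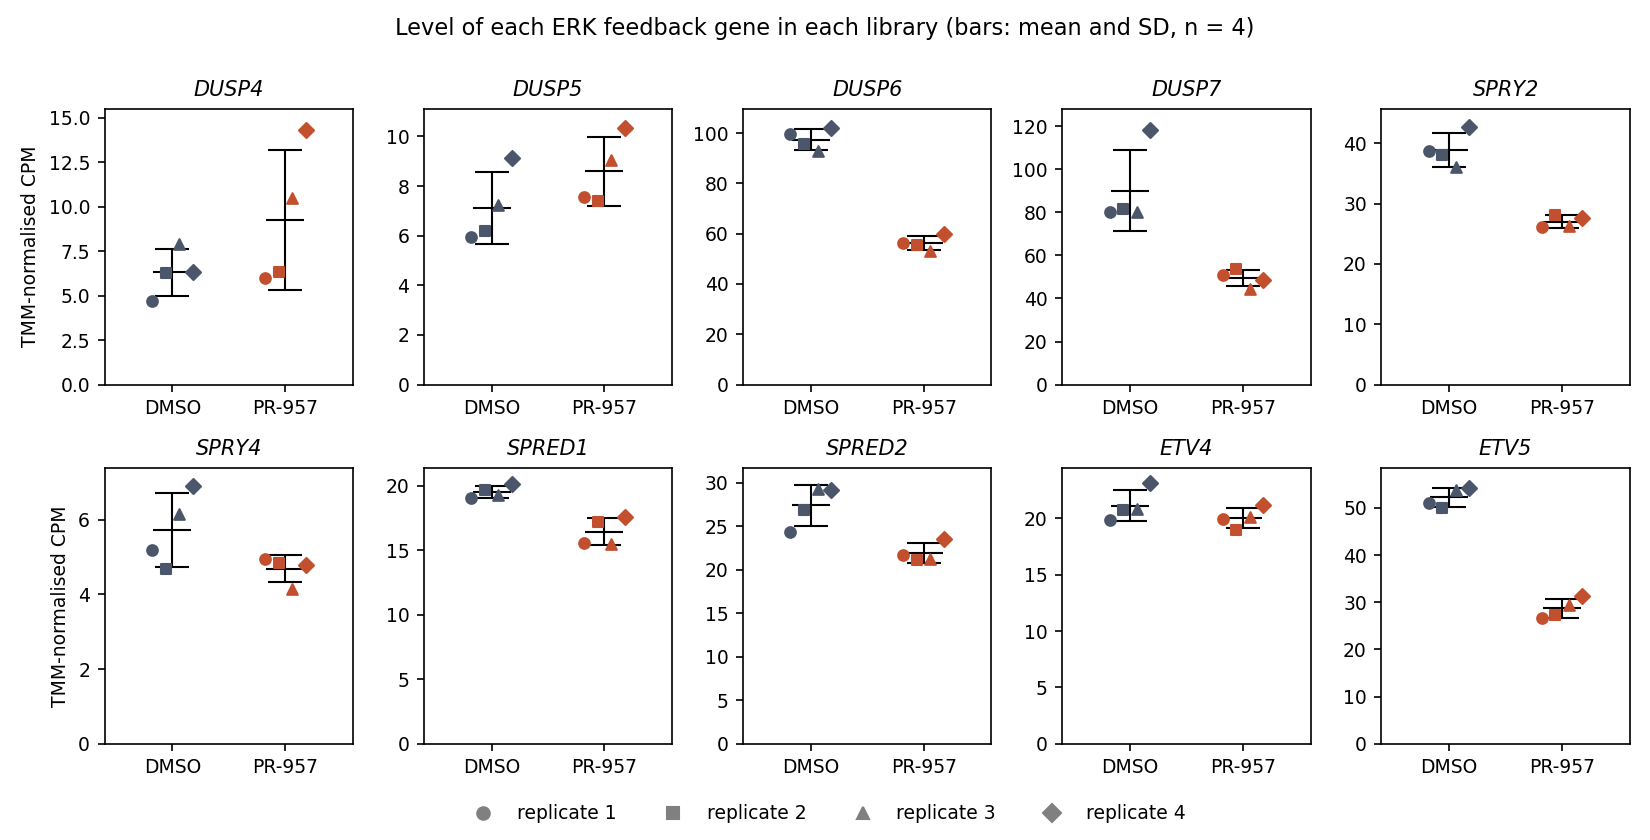
TMM-normalised CPM of each of the 10 ERK feedback genes in each library, with a panel per gene and a vertical axis from 0. Points are libraries, symbols give the replicate number, and bars give mean and SD (n = 4). DUSP6, DUSP7, SPRY2, SPRED1, SPRED2 and ETV5 show no overlap between groups, and DUSP7 is highest in DMSO replicate 4, at 118 CPM.

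DUSP6 and DUSP7 encode cytoplasmic phosphatases that act on ERK. DUSP6 (chromosome 12, 89347235 to 89352501, minus strand, hg38), with the promoter shown above, measured 99.5, 95.6, 92.8 and 102 CPM in DMSO replicates 1 to 4 and 56.4, 55.5, 53.2 and 59.8 CPM in PR-957 replicates 1 to 4. The groups lay far apart, and replicates within a group were close. DUSP6 averaged 97.4 ± 4.07 CPM in DMSO and 56.2 ± 2.75 CPM under PR-957 (SD, n = 4 each), a level of 57.6% of DMSO. Its log2 fold change was -0.79 (SE 0.0575, 95% interval -0.92 to -0.67, edgeR adjusted p = 1.79e-09). Only 4.45% of tested genes had a lower log2 fold change than DUSP6.

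DUSP7 (chromosome 3, 52048919 to 52056571, minus strand) measured 80.1, 81.7, 80.1 and 118 CPM in DMSO and 50.8, 53.6, 44.6 and 48.8 CPM under PR-957. DMSO replicate 4 stood above the other 3 DMSO libraries, and every PR-957 library lay below all of them. DUSP7 averaged 90.1 ± 18.9 CPM in DMSO and 49.4 ± 3.78 CPM under PR-957 (SD, n = 4 each). Its log2 fold change was -0.87 (SE 0.137, 95% interval -1.18 to -0.56, edgeR adjusted p = 0.000851). Without DMSO replicate 4 the log2 fold change of DUSP7 was -0.71, and the call remained. It was -0.63 in replicates 1 and 2 alone and -1.10 in replicates 3 and 4 alone, past the threshold in both.

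DUSP4 and DUSP5 encode inducible nuclear phosphatases of the same family, and neither passed the test. DUSP4 (chromosome 8, 29333062 to 29350684, minus strand) measured 4.70, 6.29, 7.91 and 6.33 CPM in DMSO and 5.96, 6.32, 10.5 and 14.3 CPM under PR-957. PR-957 replicates 3 and 4 lay above every DMSO library, whereas PR-957 replicates 1 and 2 lay within the DMSO range. Its log2 fold change was 0.55 (SE 0.298, 95% interval -0.13 to 1.23, edgeR adjusted p = 0.165). In replicates 1 and 2 alone the log2 fold change of DUSP4 was 0.15, and in replicates 3 and 4 alone it was 0.80 (edgeR adjusted p = 0.00326). Without PR-957 replicate 1 it was 0.70 (edgeR adjusted p = 0.0485), and without PR-957 replicate 4 it was 0.27. In a fit of all libraries with a 2-level term for replicates 1 and 2 against 3 and 4, DUSP4 passed as higher, with a log2 fold change of 0.51 (edgeR adjusted p = 0.0076).

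DUSP5 (chromosome 10, 110497907 to 110511533, plus strand) measured 5.95, 6.18, 7.25 and 9.13 CPM in DMSO and 7.58, 7.41, 9.04 and 10.4 CPM under PR-957. The groups overlapped, since DMSO replicate 4 lay above 3 of the 4 PR-957 libraries. Its log2 fold change was 0.26 (SE 0.152, 95% interval -0.06 to 0.58, edgeR adjusted p = 0.167). Without DMSO replicate 4 the log2 fold change of DUSP5 was 0.41 and passed the threshold (edgeR adjusted p = 0.0237).

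SPRY2 and SPRY4 encode Sprouty proteins, which are membrane-associated inhibitors of the cascade upstream of ERK. SPRY2 (chromosome 13, 80335976 to 80341126, minus strand) measured 38.8, 38.0, 36.0 and 42.7 CPM in DMSO and 26.1, 28.1, 26.2 and 27.6 CPM under PR-957. No library overlapped between groups, and the level under PR-957 was 69.4% of DMSO. SPRY2 had a log2 fold change of -0.53 (SE 0.0705, 95% interval -0.67 to -0.38, edgeR adjusted p = 5.73e-06).

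SPRY4 (chromosome 5, 142310435 to 142325021, minus strand) measured 5.20, 4.68, 6.16 and 6.90 CPM in DMSO and 4.96, 4.86, 4.16 and 4.78 CPM under PR-957. DMSO replicates 1, 3 and 4 lay above all PR-957 libraries, and DMSO replicate 2 lay below 3 of them. SPRY4 had a log2 fold change of -0.30 (SE 0.157, 95% interval -0.63 to 0.03, edgeR adjusted p = 0.128). In replicates 1 and 2 alone SPRY4 had a log2 fold change of -0.01, and in replicates 3 and 4 alone one of -0.56 (edgeR adjusted p = 0.0455). The values of SPRY4 are uncertain for a further reason, since SPRY4-IT1, on the same strand, overlaps 9.74% of its exon bases.

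SPRED1 and SPRED2 encode Sprouty-related proteins, which bring neurofibromin, the product of NF1, to the membrane, where it switches RAS off. SPRED2 (chromosome 2, 65307425 to 65432599, minus strand) measured 24.3, 26.9, 29.3 and 29.1 CPM in DMSO and 21.7, 21.1, 21.2 and 23.6 CPM under PR-957. The highest PR-957 library lay just below the lowest DMSO library. SPRED2 had a log2 fold change of -0.33 (SE 0.0796, 95% interval -0.49 to -0.16, edgeR adjusted p = 0.00232), a level of 79.8% of DMSO.

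SPRED1 (chromosome 15, 38252087 to 38357249, plus strand) measured 19.1, 19.7, 19.3 and 20.1 CPM in DMSO and 15.5, 17.2, 15.5 and 17.6 CPM under PR-957. The DMSO libraries were close to each other and all lay above the PR-957 libraries. SPRED1 had the smallest decrease among the 6 genes called, with a log2 fold change of -0.25 (SE 0.0811, 95% interval -0.42 to -0.08, edgeR adjusted p = 0.0159). Without PR-957 replicate 3 the log2 fold change of SPRED1 was -0.22 and no longer passed (edgeR adjusted p = 0.0623). It did not pass either in replicates 1 and 2 alone, at -0.24, or in replicates 3 and 4 alone, at -0.26, with only 2 libraries a group.

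ETV4 and ETV5 encode closely related ETS factors of the PEA3 group, and their transcripts differed in response. ETV5 (chromosome 3, 186046314 to 186109089, minus strand) measured 50.9, 49.95, 53.8 and 54.2 CPM in DMSO and 26.7, 27.3, 29.5 and 31.2 CPM under PR-957. The highest PR-957 library was far below the lowest DMSO library. ETV5 averaged 52.2 ± 2.09 CPM in DMSO and 28.7 ± 2.07 CPM under PR-957 (SD, n = 4 each), a level of 54.9% of DMSO. Its log2 fold change was -0.87 (SE 0.0671, 95% interval -1.01 to -0.73, edgeR adjusted p = 4.51e-09), and 3.70% of tested genes had a lower one.

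ETV4 (chromosome 17, 43527843 to 43546340, minus strand) measured 19.9, 20.8, 20.8 and 23.1 CPM in DMSO and 19.9, 19.0, 20.1 and 21.2 CPM under PR-957. The groups overlapped, with only DMSO replicate 4 above all PR-957 libraries and only PR-957 replicate 2 below all DMSO libraries. ETV4 had a log2 fold change of -0.08 (SE 0.0794, 95% interval -0.24 to 0.09, edgeR adjusted p = 0.435). The whole interval of ETV4 lay above that of ETV5, and its lower bound leaves room for a small decrease only.

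**Figure D2:**
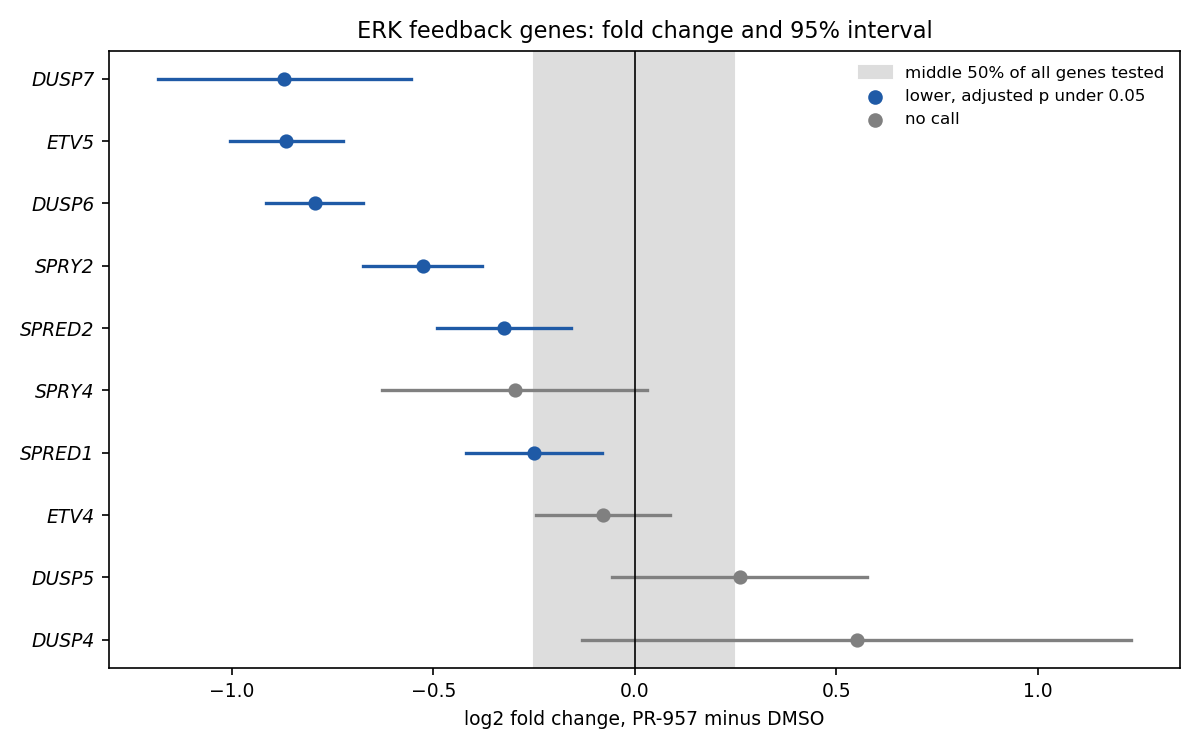
Log2 fold change of each ERK feedback gene, PR-957 minus DMSO (horizontal axis), with its 95% interval from the edgeR fit of all 8 libraries; the grey band holds the middle 50% of all genes tested, from -0.25 to 0.25. DUSP7, ETV5 and DUSP6 lie farthest to the left, at -0.87, -0.87 and -0.79, and the intervals of DUSP4, DUSP5, SPRY4 and ETV4 include 0.

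Members of a family were also compared with each other inside each library, by the ratio of their counts, which no scaling of libraries can change. Ratios were formed for the 9 pairs within a family, a choice made after the values of the genes were seen. With 4 against 4 libraries the smallest two-sided p of the exact permutation test is 0.0286. The ratio of ETV4 to ETV5 lay between 0.387 and 0.427 in DMSO and between 0.679 and 0.746 under PR-957. The groups did not overlap, and the mean log2 ratio was higher by 0.79 (exact permutation p = 0.0286, two-sided, 0.0515 adjusted over 9 pairs). That difference was 0.84 in replicates 1 and 2 alone and 0.74 in replicates 3 and 4 alone.

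For the nuclear against the cytoplasmic phosphatases, the ratios were also higher in the PR-957 libraries, and so closer to 1. The ratio of DUSP5 to DUSP6 lay between 0.0598 and 0.0895 in DMSO and between 0.133 and 0.173 under PR-957, a difference in mean log2 ratio of 1.07. The ratio of DUSP4 to DUSP6 lay between 0.0472 and 0.0852 in DMSO and between 0.106 and 0.239 under PR-957, a difference of 1.28. All 4 pairs of DUSP4 or DUSP5 with DUSP6 or DUSP7 had no overlap between groups, each with the smallest exact permutation p of 0.0286 and an adjusted value of 0.0515, which misses 0.05. These 4 pairs share genes and are not independent of each other. Each of the 5 pairs without overlap, ETV4 to ETV5 included, holds DUSP6, DUSP7 or ETV5, which already lay apart between groups. The ratios are therefore no further support, and the share of all gene pairs without overlap was not computed.

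Within the other pairs the ratios overlapped between groups. The log2 ratio of DUSP6 to DUSP7 differed by 0.05 (exact permutation p = 0.771), that of SPRED1 to SPRED2 by 0.07 (exact permutation p = 0.314) and that of DUSP4 to DUSP5 by 0.20 (exact permutation p = 0.429). For SPRY2 to SPRY4 the difference was -0.25 over all libraries (exact permutation p = 0.143), -0.50 in replicates 1 and 2 alone and 0.01 in replicates 3 and 4 alone. In the same 2 subsets it was -0.17 and 0.27 for DUSP6 to DUSP7. For DUSP4 to DUSP5 it was -0.13 and 0.54, and for SPRED1 to SPRED2 0.01 and 0.13.

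**Figure D3:**
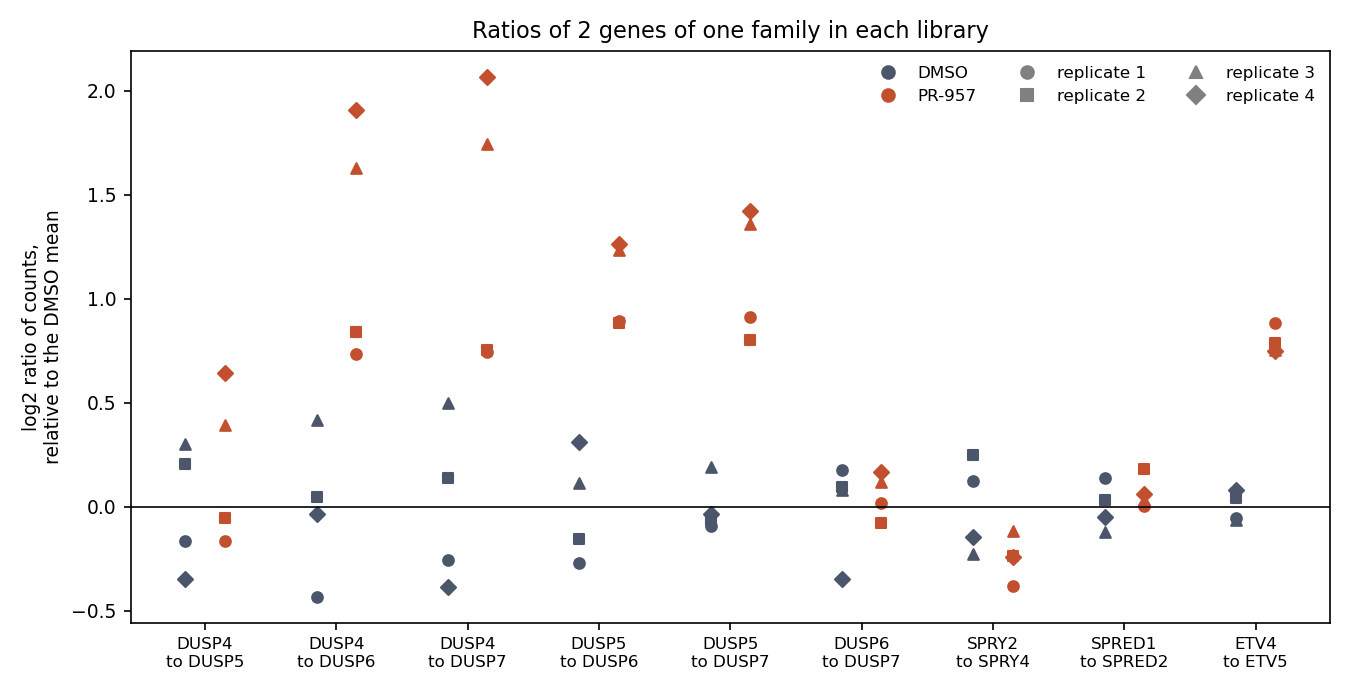
Log2 ratio of the counts of a pair of genes of one family in each library (vertical axis), set relative to the mean of the 4 DMSO libraries, for 9 pairs (horizontal axis). Points are libraries, colors give the group and symbols the replicate number. The 4 PR-957 libraries lie above all DMSO libraries for ETV4 to ETV5 and for each of DUSP4 and DUSP5 to DUSP6 or DUSP7.

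To compare levels between genes, counts were divided by exon length and scaled to the library (RPKM, in which the CPM of a gene is divided by its exon length in kilobases). In DMSO, DUSP6 (26.9 RPKM) and DUSP7 (26.8 RPKM) were the most abundant members and overlapped each other, which placed them above 84.5% and 84.4% of tested genes. ETV5 followed with 12.8 RPKM, then SPRY2 with 11.2, ETV4 with 7.80, SPRED2 with 4.40, DUSP5 with 2.88, SPRED1 with 2.20, SPRY4 with 0.801 and DUSP4 with 0.700 RPKM. Neighbours in this order lay apart in their library ranges except DUSP6 and DUSP7, ETV5 and SPRY2, and SPRY4 and DUSP4. The 3 genes that fell by at least 1.5-fold were thus the 3 most abundant per length in DMSO.

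Under PR-957 the order changed in its middle and at its end. ETV5 ranged from 12.2 to 13.3 RPKM in DMSO, above the 7.32 to 8.52 RPKM of ETV4. Under PR-957, ETV5 ranged from 6.55 to 7.65 RPKM and overlapped ETV4, at 7.01 to 7.82 RPKM, with ETV4 the higher of the pair in all 4 libraries. DUSP5 averaged 3.47 RPKM under PR-957 and overlapped SPRED2 at 3.51 RPKM. DUSP4, at 1.03 RPKM, and SPRY4, at 0.655 RPKM, also overlapped. DUSP6 and DUSP7 remained the most abundant members, with 15.5 and 14.7 RPKM.

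Some libraries carried more weight than others. DUSP6, DUSP7, SPRY2, SPRED2 and ETV5 passed the threshold as lower under each of 19 alternative fits, and SPRED1 under 15 of them. Across those fits the log2 fold change of DUSP6 stayed between -0.83 and -0.72, and that of ETV5 between -0.91 and -0.79. DUSP4 passed as higher under 5 of the 19, DUSP5 as higher under 1, SPRY4 as lower under 1 and ETV4 under none.

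**Figure D4:**
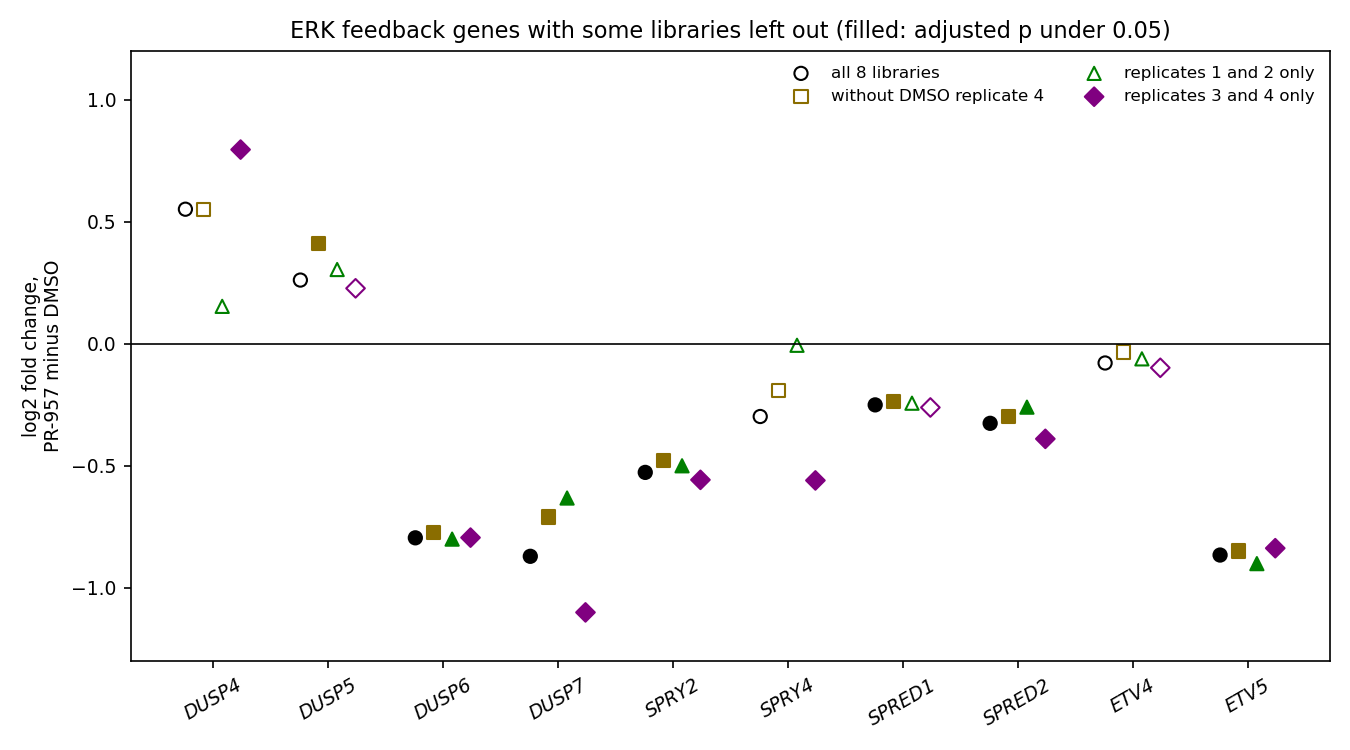
Log2 fold change of each ERK feedback gene, PR-957 minus DMSO (vertical axis), from all 8 libraries, without DMSO replicate 4, from replicates 1 and 2 only, and from replicates 3 and 4 only. Filled symbols have an adjusted p under 0.05. DUSP6, SPRED1 and ETV5 vary little between these fits, whereas DUSP4 runs from 0.15 to 0.80 and DUSP7 from -1.10 to -0.63.

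The cascade that feeds these genes was read from a list of 24 genes from receptor to kinases, of which 22 were tested, with a median log2 fold change of -0.12. Of these, 9 were lower and 4 were higher, beside 23.5% and 23.1% of all genes. A decrease of at least 1.5-fold was found for 5 of the 22 genes tested, beside 7.00% of all genes. FLT3, the receptor, fell from 340.4 ± 7.24 to 173 ± 19.7 CPM (SD, n = 4 each, log2 fold change -0.98, edgeR adjusted p = 1.1e-09). GAB2, a docking adaptor, had a log2 fold change of -1.08, and SOS2, an exchange factor that loads RAS, one of -0.68. KSR1, a scaffold that holds RAF, MEK and ERK together, had a log2 fold change of -1.09, and RASA1, which switches RAS off, one of -0.64. Exons of RASA1 overlap a gene on the opposite strand over 16.4% of their bases. Of the 2 genes not tested, HRAS and RPS6KA1, each has 1 further placement in the annotation and at most 2 counts in all, so that their levels are unknown.

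Among 10 ERK-linked transcription factors and repressors, 2 were lower and 2 were higher, which is near the background of 23.5% and 23.1% of all genes. Their median log2 fold change was -0.10. ELK3, an ETS factor of the ternary complex group, had the largest log2 fold change called, 0.33 (edgeR adjusted p = 0.0374). That call was lost when any one of DMSO replicates 1, 2 and 3 and PR-957 replicates 3 and 4 was left out, with log2 fold changes between 0.23 and 0.33 and adjusted p from edgeR between 0.0788 and 0.115. CIC, the repressor of ETV and DUSP genes, had a log2 fold change of -0.15 and did not pass (edgeR adjusted p = 0.0934). Without DMSO replicate 3 it was -0.22 and passed (edgeR adjusted p = 0.0202).

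Among 10 other genes of the DUSP, SPRY, SPRED and ETV families, 6 were tested, 2 were lower and none was higher, beside 23.5% and 23.1% of all genes. Their median log2 fold change was -0.26. DUSP1, a phosphatase that acts more on the stress kinases than on ERK, had 3.75 ± 0.180 CPM in DMSO and 2.61 ± 0.602 CPM under PR-957 (SD, n = 4 each, log2 fold change -0.52, edgeR adjusted p = 0.0357). The call of DUSP1 held under 8 of 19 alternatives only. It was lost when any library other than PR-957 replicates 2 and 3 was left out, with log2 fold changes from -0.54 to -0.38. The second gene called, DUSP10, likewise a phosphatase of the stress kinases and named after its values were seen, had a log2 fold change of -0.41 (edgeR adjusted p = 0.000657). Of the 4 genes not tested, DUSP8 and DUSP16 have further placements in the annotation, and DUSP9 and SPRY3 had at most 2 counts in all.

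Among 17 other ERK output transcripts, 13 were tested, 6 were lower and none was higher, beside the same background of 23.5% and 23.1%. Their median log2 fold change was -0.37. In this list and the preceding one, no gene was higher at an unadjusted p under 0.05 in edgeR. None was higher at an adjusted p under 0.05 with DESeq2 or limma-voom either. IER2, an immediate early gene, fell from 195 ± 32.2 to 125 ± 9.89 CPM (SD, n = 4 each, log2 fold change -0.64, edgeR adjusted p = 6e-04). HBEGF, a ligand of the EGF receptor family, had a log2 fold change of -0.77 (edgeR adjusted p = 1.28e-05). EGR2 had 26, 11, 21 and 119 counts in DMSO and 3, 0, 0 and 3 under PR-957. EGR3 had 48, 36, 58 and 199 counts in DMSO and 0, 2, 4 and 2 under PR-957. For both of these immediate early genes DMSO replicate 4 was the highest library, and with so few counts under PR-957 no fold change is given. MYC and JUNB, also called lower, had log2 fold changes of -0.57 and -0.27 and were named after their values were seen. EGR1 and FOS, named in the same way, had log2 fold changes of -0.56 and 0.42 with overlapping groups and were not called. For FOS, DMSO replicates 1 to 3, at 13.6 to 14.0 CPM, lay below all PR-957 libraries, at 18.2 to 29.5 CPM. DMSO replicate 4, at 22.9 CPM, made the overlap. For EGR1, PR-957 replicates 1 to 3, at 6.5 to 8.6 CPM, lay below all DMSO libraries, at 10.4 to 24.8 CPM. There PR-957 replicate 4, at 22.4 CPM, made the overlap. This list had 1 higher call under some alternatives, given below.

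**Figure D5:**
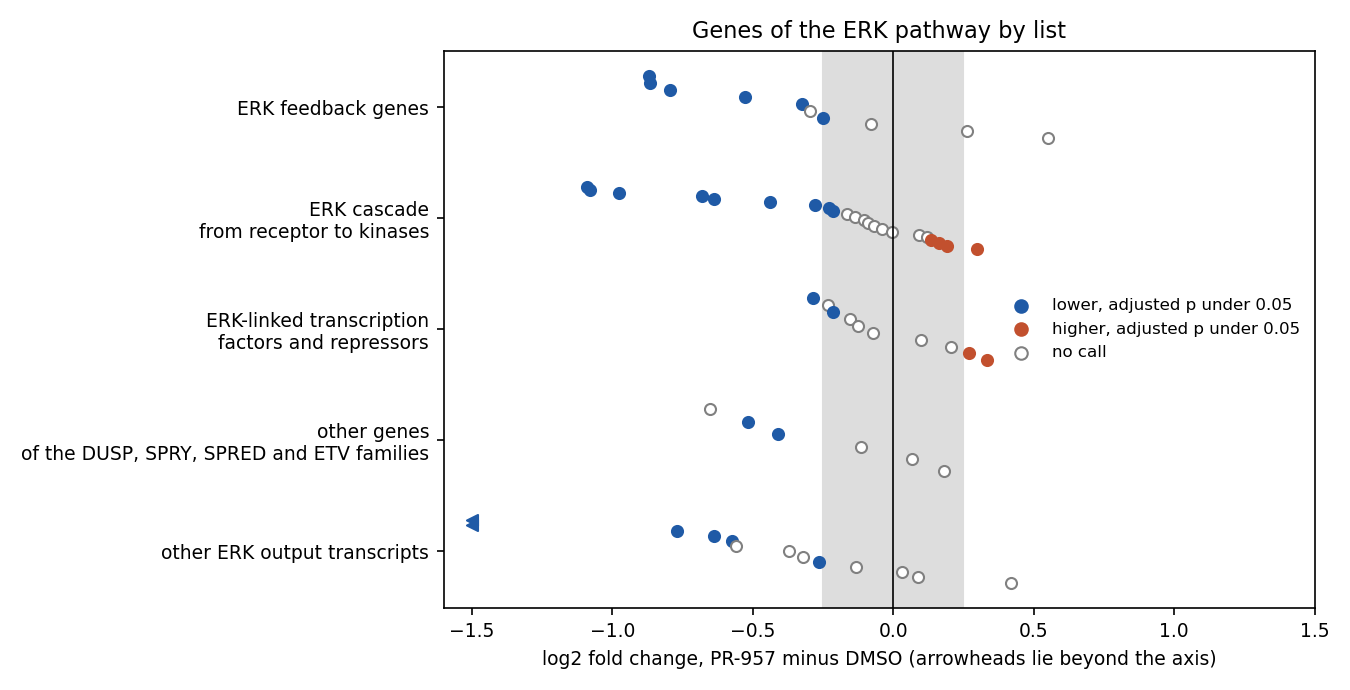
Log2 fold change, PR-957 minus DMSO (horizontal axis), of every tested gene of 5 lists of the ERK pathway, a point per gene; blue is lower and red higher at an adjusted p under 0.05, and the grey band holds the middle 50% of all genes tested. EGR2 and EGR3 lie beyond the axis. The feedback genes and the other output transcripts have 6 lower calls each and no higher call, and the cascade list has calls in both directions.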

How the data were processed

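Poly(A) RNA of 8 MOLM-13 libraries, 4 per group by their titles, was sequenced as paired ends. Per the labels and the file headers, the authors trimmed reads with Trimmomatic 0.39, aligned them to hg38 with STAR 2.7.10a and counted fragments with featureCounts 2.0.1, requiring both ends, on the reverse strand, against NCBI RefSeq genes. Deposited values were raw counts per gene. Reads of near-identical copies may not be counted under these settings. The counting command named 16 libraries, of which the table held 8. Rows without values (6 of 38557) were left out. The authors' table of their own comparison (fold changes and p-values from DESeq2) was not used.

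The groups were compared in R 4.3.3 with edgeR 4.0.16 (quasi-likelihood test, robust glmQLFit and glmQLFTest, two-sided, no covariates). Scaling factors were TMM (trimmed mean of M-values), filterByExpr kept 13179 genes, and Benjamini-Hochberg adjustment covered all of them, with a threshold of 0.05. CPM were TMM-normalised. RPKM used the exon length of the counting annotation. Counting error is the only error that depth covers, and a library's 3 counts, the limit that a count of 0 allows, correspond to 0.130 to 0.180 CPM.

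The members and lists were chosen with earlier results of these data known. Genes named were the 10 members, list genes past the threshold with at least 1.5-fold change, the largest called change of each list, FLT3, CIC and EGR3, and any other gene was named after its values were seen. The value of 1 list gene is not reported here. Alternatives were DESeq2 1.42.0, limma-voom (limma 3.58.1), other scalings and filters, the replicate number or a 2-level term for replicates 1 and 2 against 3 and 4 as a covariate, these pairs of replicates alone, and each library left out in turn. Ratios within families were added after the data were seen and were tested by exact permutation over samples.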

Additional observations from a re-analysis of the deposited data

Results flagged for a closer look

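DUSP7 in DMSO replicate 4 was the single value that stood far from the rest of its group, at 118 CPM beside 80.1 to 81.7 CPM in the other 3 DMSO libraries. The gap took 0.958 of the range of the group, above Dixon's 95% critical value for 4 samples. The test was applied to 44 groups of 4 libraries, from the 22 genes of the naming rule, and chance alone exceeds that value in about 1 group of 20. Without this library the log2 fold change of DUSP7 was -0.71 and remained past the threshold.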

How the results depend on the processing

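No value past the threshold changed direction. The difference in log2 ratio of SPRY2 to SPRY4, which did not pass, was -0.25 over all libraries and 0.01 in replicates 3 and 4 alone. Those of DUSP6 to DUSP7 and DUSP4 to DUSP5, which did not pass either, were 0.05 and 0.20 over all libraries. In replicates 1 and 2 alone they were -0.17 and -0.13. Of the values computed under alternatives, 628 kept their direction and their side of the threshold or, for counts and ratios, stayed within 1.5 times or 1 SD of the reported value. A further 9 passed the threshold only under the alternative, 22 no longer passed it and 40 counts or ratios moved. The count of lower feedback genes was 6 under most alternatives and 5 with library totals alone, in replicates 1 and 2 alone and without PR-957 replicate 3. It was 3 when at least 1.5-fold was required. The count of higher feedback genes was 0, and 1 (DUSP4) without a filter, with the 2-level term, with the replicate block and in replicates 3 and 4 alone, and 0 to 1 when a library was left out. DUSP4 then had log2 fold changes of 0.54 without a filter (adjusted p from edgeR 0.00376), 0.51 with the 2-level term (0.0076), 0.52 with the replicate block (0.0106) and 0.80 in replicates 3 and 4 alone (0.00326), and 0.27 to 0.70 with a library left out. DUSP5 ran from 0.16 to 0.41 with a library left out, and SPRY4 was -0.56 in replicates 3 and 4 alone. SPRED1 was -0.17 with library totals alone, -0.24 in replicates 1 and 2 alone, -0.26 in replicates 3 and 4 alone and -0.28 to -0.22 with a library left out, and passed in none of the first 3. With library totals alone, 2353 of all genes were lower and 4066 higher, beside 3098 and 3045, and the median log2 fold change of all genes was 0.08.

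Of the lists, the cascade had 0 higher calls in replicates 3 and 4 alone. The transcription factors had 1 higher call in replicates 1 and 2 alone and 1 to 2 with a library left out. Their lower calls were 0 with library totals alone, 4 with the replicate block, 1 within either pair of replicates, 1 with upper-quartile scaling and 0 to 4 with a library left out. The other family genes had 1 lower call with DESeq2, with library totals alone, without a filter and in replicates 1 and 2 alone, and 1 to 2 with a library left out. The other output transcripts had 1 higher call with the replicate block, with the 2-level term and in replicates 1 and 2 alone, and 0 to 1 with a library left out. The cause of these changes was not tested beyond the smaller number of libraries where some were left out.

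Replicate numbers were shared by the groups in the labels. The deviations of same-numbered libraries from their group means correlated at 0.15, 0.21, 0.0985 and 0.20 for replicates 1 to 4. Not every one was over 0.1, so the numbers were not taken to pair the samples. Between groups, correlations within replicates 1 and 2 or within 3 and 4 were all positive, from 0.0737 to 0.2131, and those across these sets were all negative, from -0.1872 to -0.0411. PR-957 replicate 3 correlated best with DMSO replicate 4. The replicate block gave 3400 lower and 3513 higher genes in all. Depth limits EGR2 and EGR3, with 0 to 4 counts in each PR-957 library.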
